A study of Homo sapiens and Mus musculus with 66 samples.

Results

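In K562 cells, 9326 windows of 100 kb were called as chromatin at the nuclear lamina by both cTSA-seq and TSA-seq, and 3926 of them lay outside every list of called regions from HCT116 cells. These windows, named K562-restricted shared windows here, were chosen by the calls themselves, as windows of the K562 list shared by both methods that met no region of 9 HCT116 lists. The name refers to these lists only, since HCT116 signal was not analysed and no other line was compared. They covered 392.6 Mb of hg19 and made up 42.1% of the K562 shared windows (95% Wilson interval 41.1 to 43.1%, counting error only). The interval treats windows as independent, which they are not, since the 3926 windows joined into 335 stretches of neighbouring windows. It is therefore too narrow, and leaving out a single chromosome gave shares from 38.2 to 44.2%, beyond both of its ends. The share is fixed by the choice of windows and is a description, as are the numbers of lists given further on. The reference class was the 4387 K562 shared windows called in HCT116 bulk cells (438.7 Mb, 47.0%). The other 1013 shared windows (10.9%) were called in an HCT116 list but not in bulk.

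cTSA-seq deposits biotin on chromatin near lamin-B1, a structural protein of the nuclear lamina, and biotinylated chromatin is pulled down with streptavidin and sequenced beside an input. K562 cells come from a leukemia and HCT116 cells from a colorectal cancer, and both are established human lines. The K562 shared list holds regions called both in 2 bulk cTSA-seq replicates and in published TSA-seq data. Three-state HMM calls were used as deposited, as region starts and ends, and they carry neither signal nor depth.

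The labels name no genotype change in either line. The HCT116 lists came from bulk cells, 3 experiments with 1000000, 200000 and 50000 cells, asynchronous cells sorted by FACS into G1, S and G2, and cells sorted in G1 at 90 min and 180 min after release from a nocodazole block of 16 h per the labels (90m G1 and 180m G1). The labels hold 1 pull-down library for 1000000 cells and 2 for each of the other HCT116 experiments, and the deposited lists hold no values per replicate, so no spread between replicates could be given, and no test over samples was possible. Lists of regions hold no expression, so the identity of either line could not be checked against marker genes.

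Lamina-associated domains are large stretches of chromatin that lie against the inner nuclear membrane, where lamins and membrane proteins hold them. They are known to be AT-rich, poor in genes, late in replication and low in transcription. One portion of them is shared by most cell types, while another portion moves on or off the lamina as cells differentiate, often together with tissue genes inside it.

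Sequence at the centre of the 3 longest stretches of K562-restricted shared windows is shown beside that of the 3 longest stretches called in HCT116 bulk, because AT-rich sequence is the base composition on which the classes are compared. Each is 200 bases of the plus strand of hg19, and capitals mark runs of at least 6 A or 6 T (AAAAAA or TTTTTT, which cover both strands).
chr4:32299901-32300100 (K562-restricted): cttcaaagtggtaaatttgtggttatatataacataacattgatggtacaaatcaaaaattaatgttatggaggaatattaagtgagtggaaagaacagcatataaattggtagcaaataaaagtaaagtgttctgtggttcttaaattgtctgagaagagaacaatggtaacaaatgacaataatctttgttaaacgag
chr4:135899901-135900100 (K562-restricted): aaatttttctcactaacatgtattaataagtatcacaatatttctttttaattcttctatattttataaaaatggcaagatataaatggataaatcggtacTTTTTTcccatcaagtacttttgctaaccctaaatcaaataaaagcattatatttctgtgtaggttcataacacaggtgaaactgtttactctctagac
chr4:116549901-116550100 (K562-restricted): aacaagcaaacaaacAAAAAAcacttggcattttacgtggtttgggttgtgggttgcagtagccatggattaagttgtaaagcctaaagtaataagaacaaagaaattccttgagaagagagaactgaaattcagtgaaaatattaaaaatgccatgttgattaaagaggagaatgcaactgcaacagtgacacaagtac
chr4:63149901-63150100 (called in HCT116 bulk): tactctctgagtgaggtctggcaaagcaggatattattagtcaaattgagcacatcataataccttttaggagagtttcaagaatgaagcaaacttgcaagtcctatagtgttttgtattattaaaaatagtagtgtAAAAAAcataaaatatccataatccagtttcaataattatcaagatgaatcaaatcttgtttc
chrX:91349901-91350100 (called in HCT116 bulk): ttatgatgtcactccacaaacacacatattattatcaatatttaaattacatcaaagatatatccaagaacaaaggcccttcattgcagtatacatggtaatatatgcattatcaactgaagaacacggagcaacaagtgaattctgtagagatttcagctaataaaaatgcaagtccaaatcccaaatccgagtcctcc
chr5:25049901-25050100 (called in HCT116 bulk): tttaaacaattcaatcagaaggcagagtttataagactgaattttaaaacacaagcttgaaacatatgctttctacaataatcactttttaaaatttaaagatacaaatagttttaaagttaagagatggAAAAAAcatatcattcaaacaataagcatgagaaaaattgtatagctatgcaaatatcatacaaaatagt
The GC content of the first 3 was 29.0%, 26.5% and 35.5%, and that of the last 3 was 30.0%, 34.0% and 24.0%. A run was present in 2 of the 3 sequences of each class. Over whole classes, 39.5% of 200-base pieces of the K562-restricted windows held such a run, against 37.9% of pieces in the windows called in bulk and 36.1% of all pieces of hg19. A match of these letters is a description of the sequence and not a binding site.

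HCT116 calls split the K562 shared windows mainly into an uncalled and a widely called group. Besides the 3926 windows in 0 lists, 2518 were in 8 of the 9 lists and 977 in all 9, while each of the numbers from 2 to 6 lists held 145 to 224 windows. Just outside the threshold lay 540 windows that were called in exactly 1 list. Of these, 277 were called in 180m G1 alone, 78 in 90m G1 alone, 60 with 200000 cells alone, 51 in S alone and 33 in bulk alone. Their median GC content was 37.1%, against 36.2% for the windows in 0 lists, and they held 1.8 gene starts per Mb against 1.85. The 90m G1 list held 1271 of the K562 shared windows (13.6%), whereas the other 8 lists held from 4016 (43.1%, G1) to 4552 (48.8%, 200000 cells).

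**Figure D1:**
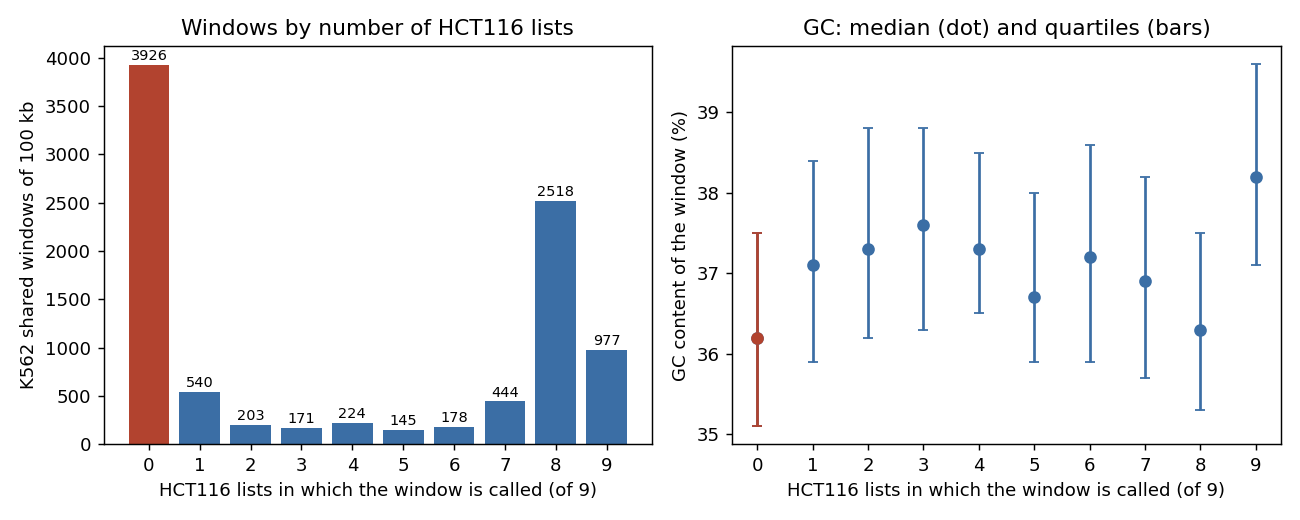
Left, number of K562 shared windows of 100 kb (vertical axis) by the number of HCT116 lists that call them (horizontal axis, of 9). Right, GC content in % of the same windows, with the median as a dot and the quartiles as bars. The 3926 windows in 0 lists, in red, have a median of 36.2%, close to the 36.3% of windows in 8 lists and below the 38.2% of windows in all 9.

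Absence of an HCT116 call was the more common state in the genome. Of all 30970 windows of hg19, 61.0% lay outside every HCT116 list, and of the 6458 windows that both methods called depleted in K562, 78.0% did. The 42.1% of the K562 shared windows was lower than both of these shares. The windows of hg19 include 2308 with more than 50% unsequenced bases (N), against 12 of the K562 shared windows. Of the 8344 windows in the HCT116 bulk list, 3957 lay outside the K562 shared list. Each HCT116 list covered from 17.0% (90m G1) to 26.9% (bulk) of the windows of hg19. The K562 cTSA-seq list covered 39.6%, the K562 TSA-seq list 33.9% and the shared list 30.1%. The part of this difference in the 42.1% was not tested.

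The K562-restricted windows formed long stretches. They joined into 335 stretches with a median size of 700 kb (quartiles 350 and 1600 kb), of which 38 were a single window and 65 measured at least 2 Mb. These 65 held 2111 windows (53.8%), and the 10 longest held 589 (15.0%). Windows called in bulk joined into 276 stretches with a median of 1150 kb, and 60.0% of those windows were in stretches of at least 2 Mb. The largest stretch was 10.2 Mb in the first class and 10.1 Mb in the second.

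Most edges of these stretches were ends of a K562 region and not HCT116 calls. Of 670 edges, 470 met a window outside the K562 shared list that HCT116 did not call either, 196 met a K562 shared window called in HCT116, and 4 met a window called in HCT116 only. Just 195 K562-restricted windows (4.97%) lay next to an HCT116 call, while 2881 (73.4%) lay at least 10 windows from any. The median distance was 26 windows, and the largest was 32200 kb. These distances were not compared with those of other windows without an HCT116 call.

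Entire K562 regions were often without a call in HCT116. Of the 482 K562 shared regions, 166 (34.4%) consisted of K562-restricted windows from end to end, with a median size of 1.1 Mb, and held 2682 of the windows (68.3%). A further 114 regions were restricted in part and had a median size of 2.1 Mb, and the other 202 held no K562-restricted window. By size, the share of windows that were K562-restricted was 49.4% in regions under 0.5 Mb and 32.4% in the 36 regions of at least 5 Mb, with 48.8%, 40.6% and 46.8% in the size classes between. Of these 36 large regions, 6 were restricted whole and 11 not at all.

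The longest stretch was chr4:27200001-37400000, which was 10.2 Mb of 35.3% GC and one whole K562 shared region. It held the protein-coding genes PCDH7, a protocadherin that mediates adhesion between cells, ARAP2, a GTPase-activating protein, and DTHD1. The nearest HCT116 calls lay 2100 kb to its left and 5100 kb to its right. On the same chromosome, chr4:132700001-139100000 (6.4 Mb, 34.7% GC) held PCDH10, PCDH18 and PABPC4L, and the nearest calls were 49500 kb and 8400 kb away. The third stretch was chr4:113700001-119400000 (5.7 Mb), with 8 whole genes. These included ANK2, an adaptor that anchors ion channels in the membrane, CAMK2D, a calcium and calmodulin dependent kinase, NDST4 and NDST3, which modify heparan sulfate, UGT8, which makes galactosylceramide, and ARSJ.

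The next in size lay on chromosome 12, from 83800001 to 89400000 (5.6 Mb), and held 12 whole genes. Among them were MGAT4C, LRRIQ1, CEP290, a protein of the cilium base, KITLG, the ligand of the KIT receptor, TMTC3 and SLC6A15, a transporter of neutral amino acids. Together with the 3 stretches of chromosome 4 it was among the 5 longest K562 shared regions without any window called in HCT116. The fifth was the 5.5 Mb stretch of chromosome 8, with GDAP1, ZFHX4, HNF4G, IL7, PKIA and JPH1 as its longest genes. HCT116 calls came within 1200 kb and 2200 kb of that stretch, closer than on chromosome 12, where they were 27800 kb and 7900 kb away.

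A 5.5 Mb stretch of chromosome 7 touched a region called only with 200000 cells on its left side. It held SEMA3A and SEMA3E, secreted guidance cues for axons and vessels, CACNA2D1, a calcium channel subunit, GNAI1, a G protein alpha subunit, PCLO, a scaffold of the presynaptic zone, and CD36, a fatty acid receptor. Another stretch of chromosome 4 (5.4 Mb) held MARCHF1, a ubiquitin ligase of antigen presenting cells, FSTL5, NAF1, SMIM31, TMA16 and NPY1R, a receptor of neuropeptide Y. The remaining stretches of the 10 longest were on chromosomes 1 (4.9 Mb, BRINP3, PLA2G4A, PDC and PTGS2), 14 (4.9 Mb, LRFN5 and FSCB) and 2 (4.8 Mb, LRP1B, KYNU and NXPH2). PLA2G4A releases arachidonic acid and PTGS2 turns it into prostaglandin, while KYNU works in tryptophan breakdown.

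**Figure D2:**
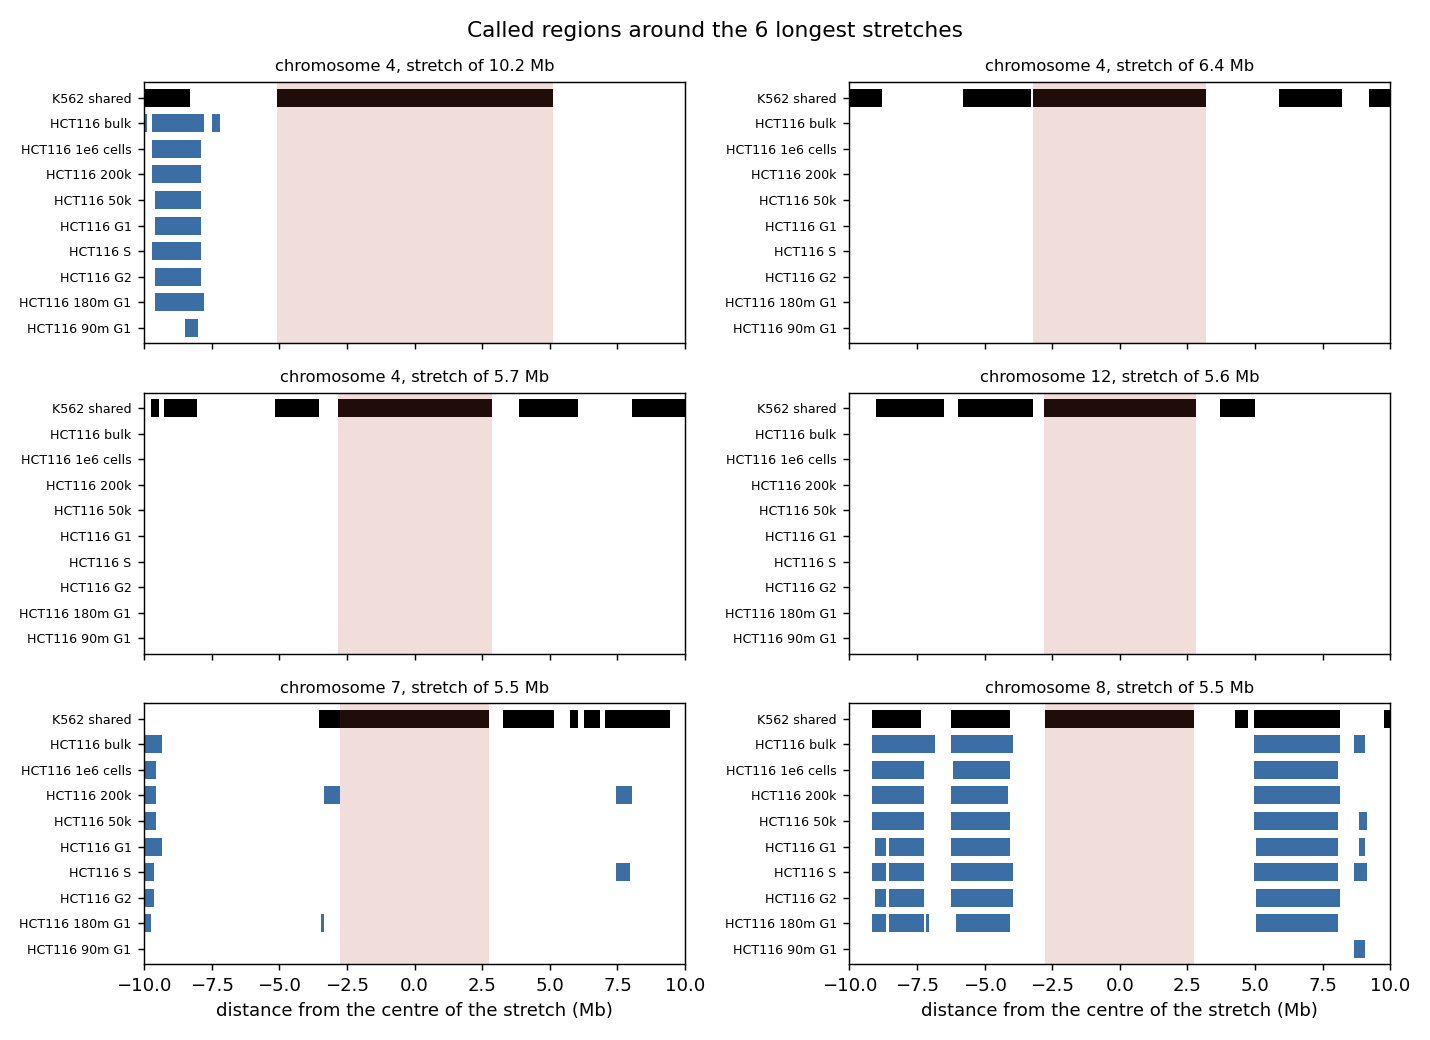
Called regions around the 6 longest stretches, by distance from the centre of each stretch in Mb (horizontal axis). The top row of each panel (black) is the K562 shared list, the 9 rows below (blue) are the HCT116 lists, and the red band is the stretch. No HCT116 list has a region inside a band, and for the stretches of 6.4 Mb and 5.7 Mb on chromosome 4 and of 5.6 Mb on chromosome 12 the whole displayed span holds no HCT116 call.

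Some of these stretches lay in far longer parts of chromosomes without any HCT116 call. There were 38 runs of at least 10 Mb in which no window was called in any HCT116 list, 678.3 Mb in all, and they held 2180 of the K562-restricted windows (55.5%). The longest was chr4:83200001-147500000, where 394 windows (61.3% of the run) were K562-restricted. A run of 41.3 Mb on chromosome 12 from 56000001 to 97300000 held 197. On chromosomes 5, 3 and 2, runs of 31.2, 26.9 and 24.5 Mb held 81, 135 and 144. Long runs also occurred without K562-restricted windows, since runs of 19.8 and 17.7 Mb on chromosome 15 held 0.

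The share of K562 shared windows without a call in HCT116 differed widely between chromosomes. It was highest on chromosome 12 (82.9%, 290 of 350), chromosome 4 (72.5%, 771 of 1063) and chromosome 6 (59.7%, 387 of 648). It was 0 on chromosomes 15, 16 and Y, which had 76, 91 and 33 shared windows. The 33 on chromosome Y were a single region, chrY:2900001-6200000, and whether its reads came from chromosome Y was not tested. On chromosome 16, 98.9% of the shared windows were called in HCT116 bulk. Chromosome X had 111 K562-restricted windows of 693 (16.0%), and chromosome 22 had no K562 shared window. Chromosome 4 alone held 19.6% of the K562-restricted windows and 11.4% of all shared windows, and chromosomes 4, 2 and 6 together held 39.8%.

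Over all windows of a chromosome, the K562-restricted ones included, 78.9% of chromosome 12 and 73.0% of chromosome 4 lay outside every HCT116 list, against 61.0% of hg19. Chromosomes with a lower share of K562-restricted windows stood on both sides of this value, since 85.2% of chromosome 17, 78.0% of chromosome 19 and 75.1% of chromosome 15 lay outside every list, and 38.7% of chromosome X did. The shares over all windows of a chromosome include windows of mostly unsequenced bases. Without chromosome 4, the share of K562 shared windows that were restricted was 38.2%.

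**Figure D3:**
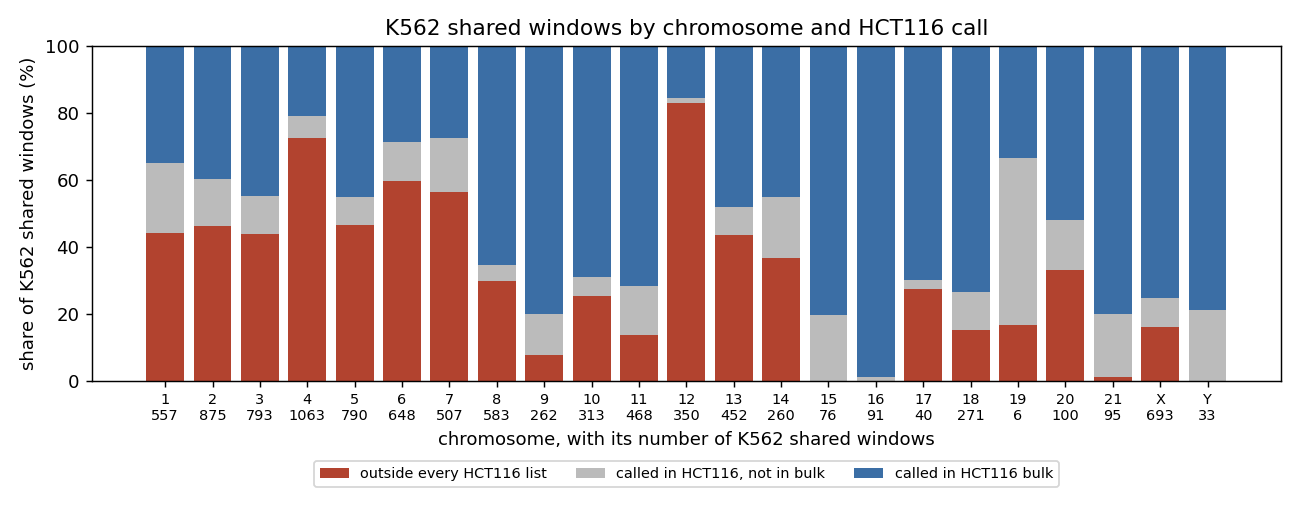
Share of the K562 shared windows of each chromosome in % (vertical axis), split into windows outside every HCT116 list (red), called in HCT116 but not in bulk (grey) and called in HCT116 bulk (blue). The number under each chromosome is its number of K562 shared windows, and the red part runs from 0 on chromosomes 15, 16 and Y to 82.9% on chromosome 12.

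K562-restricted windows lay farther from chromosome ends than windows called in bulk. Their median distance to the nearer end was 51.5 Mb against 32.8 Mb, or 30.2% against 24.2% of the chromosome length. Within 10 Mb of an end lay 83 K562-restricted windows (2.11%) and 600 windows called in bulk (13.7%). The classes also hold different chromosomes, and the part of this in the distances was not tested.

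The K562-restricted windows were slightly lower in GC content than the reference class. Their median was 36.2% (quartiles 35.1 and 37.5%) against 37.0% (35.8 and 38.3%) for windows called in bulk, a difference of medians of -0.82 percentage points. Both were far below the 46.0% of windows depleted in K562 and the 42.0% of HCT116 bulk windows outside the K562 list. Within chromosomes that had at least 10 windows of each class, the K562-restricted windows had the lower median on 14 of 18, with differences from -3.27 points on chromosome 12 to 0.68 on chromosome 17 and a median of -0.38. Much of the difference went with the windows that were also called in 90m G1, since against windows called in bulk and not in 90m G1, the difference was -0.33 points. The 977 windows in all 9 lists, which include 90m G1, had a median of 38.2%. The CpG ratio, observed over expected from the C and G content, was 0.178 in K562-restricted windows and 0.179 in windows called in bulk, against 0.207 over hg19.

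Although lower in GC, the K562-restricted windows held more genes than the windows called in bulk. With at least 80% of a gene required to lie in the class, they contained 690 protein-coding genes (3.42% of 20163), or 1.76 per Mb, while the windows called in bulk contained 466 (2.31%), or 1.06 per Mb. Both densities were low against 6.51 per Mb over hg19 and 17.1 per Mb in windows depleted in K562. K562-restricted windows had more genes per Mb on 16 of the 18 chromosomes, and fewer on chromosomes 13 and 17. With the bulk class weighted by chromosome as the K562-restricted windows are, the densities were 1.76 and 0.835 per Mb. Of the K562-restricted windows, 85.0% held no start of a protein-coding gene, against 91.4% of the windows called in bulk. Other gene types differed less, with 3.33 against 2.99 lncRNA genes per Mb and 0.611 against 0.552 miRNA genes per Mb. Among pseudogenes, processed copies were at 2.67 against 2.24 per Mb, and unprocessed ones at 0.288 against 0.47. A density of protein-coding genes above that of windows called in bulk was not particular to the K562-restricted windows. Shared windows called only in HCT116 lists other than bulk held 1.47 genes per Mb. By gene starts, windows in 1 to 7 lists held 1.29 to 2.4 per Mb, against 1.85 in 0 lists. The lowest values were 0.949 in 8 lists and 0.87 in all 9.

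**Figure D4:**
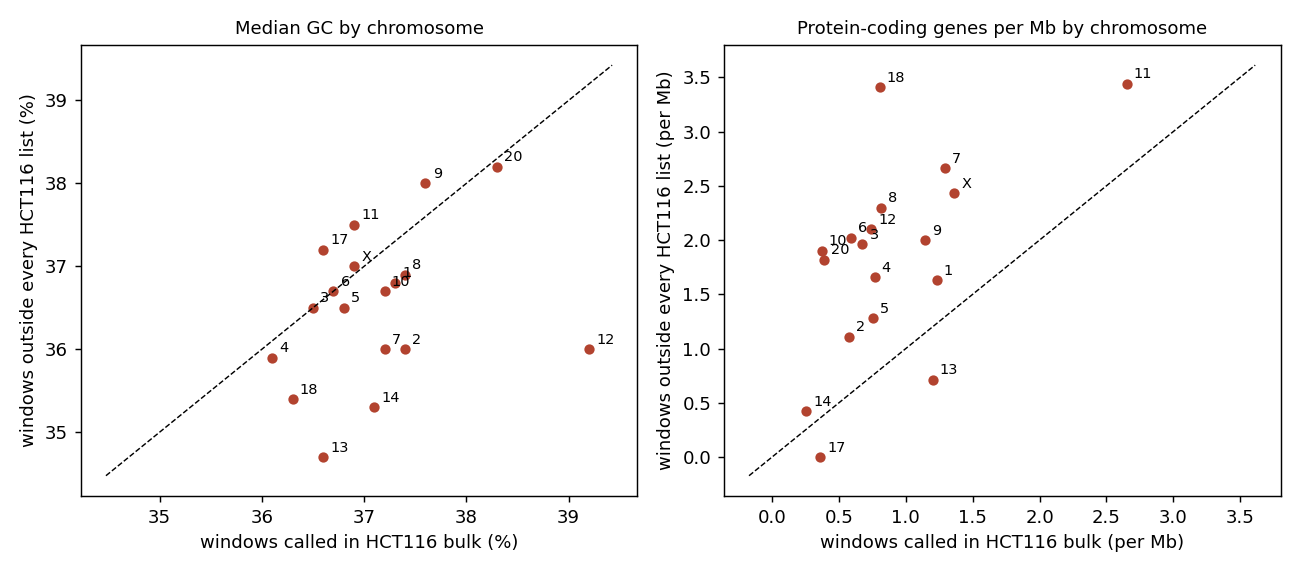
Each point is one of the 18 chromosomes with at least 10 windows of both classes, with the value in windows called in HCT116 bulk on the horizontal axis and in windows outside every HCT116 list on the vertical axis, and the dashed line marks equality. Left, median GC content in %, lower in the windows outside every list on 14 chromosomes, of which chromosomes 3, 6 and 20 differ by less than 0.1 points and lie on or near the line. Right, protein-coding genes per Mb, above the line on 16.

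Genes in the K562-restricted windows were long, but the class held fewer of the very longest ones. The median gene length was 61.7 kb, against 28.8 kb in windows called in bulk and 27.2 kb over all genes. Olfactory receptor and keratin genes, which are short and clustered, moved that order, since without them the medians were 64.6 kb and 93.7 kb. Genes over 500 kb numbered 42 in the K562-restricted windows and 67 in the windows called in bulk. Among the longest were LRP1B, a large receptor of the LDL receptor family (1899.6 kb), CTNNA3, an alpha-catenin of cell junctions (1851.2 kb, 87.9% of it in these windows), and CCSER1 (1477.9 kb). NAALADL2, GALNTL6, ERBB4, a receptor tyrosine kinase for neuregulins, SPAG16, GRIK2, a kainate receptor subunit, and STPG2 followed, with lengths from 1372.0 down to 959.4 kb.

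Promoters of the genes in K562-restricted windows were less often rich in CpG than those of all genes. Taking 250 bases before to 50 after the start, 221 of 690 (32.0%) had at least 55% GC and a CpG ratio of at least 0.65, against 117 of 466 (25.1%) in windows called in bulk and 48.0% of all genes. Without olfactory receptor and keratin genes, the first 2 shares were 32.8% and 31.5%. A CpG-rich promoter is shown, from PCDH7 in the longest stretch and chosen after its values were seen, on the plus strand of hg19 with every CG dinucleotide in capitals.
PCDH7 chr4:30721741-30722040: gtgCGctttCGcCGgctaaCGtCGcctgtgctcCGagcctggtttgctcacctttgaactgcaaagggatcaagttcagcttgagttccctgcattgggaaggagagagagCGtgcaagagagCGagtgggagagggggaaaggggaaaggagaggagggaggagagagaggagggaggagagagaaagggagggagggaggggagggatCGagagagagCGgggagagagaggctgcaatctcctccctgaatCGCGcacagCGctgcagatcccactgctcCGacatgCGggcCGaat
The PCDH7 promoter had 60.3% GC and 16 CG dinucleotides. A CG was present in 97.6% of all 20163 promoters of this length.

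Of 24 lists of genes, 3 had at least 9 genes in K562-restricted windows and none in windows called in bulk. Beside the 3.42% of all protein-coding genes that lay in K562-restricted windows and the 2.31% in windows called in bulk, 9 of 13 serpin B genes (69.2%) lay in the first class and 0 in the second. Serpin B proteins are intracellular protease inhibitors, several of them of squamous epithelium, and the genes here were SERPINB11, SERPINB7, SERPINB8, SERPINB2, SERPINB10, SERPINB12, SERPINB13, SERPINB4 and SERPINB3, neighbours in 1 cluster of chromosome 18. The serpin B cluster lay in a 0.5 Mb stretch that touched a window called in 7 HCT116 lists. In the K562 shared region around it, 46 of 63 windows were called in bulk. UDP-glucuronosyltransferases, which conjugate steroids, bile acids and drugs in liver and gut, had 11 of 22 genes (50.0%) in K562-restricted windows. Besides UGT8 these were UGT2 genes such as UGT2A1, UGT2B7, UGT2A2, UGT2B4, UGT2B17, UGT2B15 and UGT2A3, which also neighbour each other, on chromosome 4. Genes of 1 cluster share their window, so each cluster counts as few independent places.

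Collagen and laminin genes were spread over several chromosomes and had 9 of 56 (16.1%) in K562-restricted windows and 0 in windows called in bulk. They were LAMA2, a laminin chain of muscle and nerve basement membrane, the fibrillar collagens COL24A1, COL11A1, COL5A2, COL3A1 and COL1A2, the basement membrane collagen COL4A5, and COL14A1 and COL12A1, which associate with fibrils. COL5A2 and COL3A1 neighbour each other in a 0.6 Mb stretch of chromosome 2. Solute carriers, transporters of the plasma membrane and organelles, had 19 of 386 (4.92%) against 4 (1.04%), beside 3.42% and 2.31% of all protein-coding genes. The longest of the 19 were SLC4A10, SLC27A6, the readthrough SLCO1B3-SLCO1B7, SLC16A7, SLCO6A1, SLC4A7, SLCO1B1 and SLCO1B3. The SLCO1B entries overlap or adjoin each other in a 0.6 Mb stretch of chromosome 12. The 4.92% of solute carriers was near the 3.42% of all genes, so the count of 19 is no result about the family. Glutamate receptor genes had 5 of 26 (19.2%) against 2, and they included GRIK2, GRM5, GRM3 and GRIA2. WNT, FGF and BMP ligands had 5 of 52 (9.62%) against 2, namely BMP5, FGF10, WNT2, FGF20 and BMP4.

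Other families had more genes in windows called in bulk than in K562-restricted windows, with most genes of each family outside both classes except for the type II cadherins and the long neuronal genes. Type II cadherins, adhesion proteins of neurons and mesenchyme, had 0 of 12 genes in K562-restricted windows and 9 in windows called in bulk. Of 149 keratin and keratin-associated protein genes the counts were 0 and 32, and of 414 olfactory receptor genes they were 17 and 63. The 8 longest of the 17 were OR2A42, OR2A1, OR5K1, OR5H14, OR2A14, OR5H1, OR2A7 and OR5H8, members of clusters with near-identical copies. GABA-A receptor genes numbered 1 of 19 (GABRR3) against 7. Among 47 long neuronal adhesion and synapse genes, 4 (LRP1B, NLGN1, FSTL5 and CNTN1) stood against 23, and potassium channels had 3 of 95 (KCND2, KCNC2 and KCNJ3) against 9. Over all protein-coding genes the shares were 3.42% and 2.31%. Olfactory receptors (4.11%) and potassium channels (3.16%) were near the first share, as are 0 of 12 and 1 of 19 genes. Those counts in K562-restricted windows are no result about the families. In windows called in bulk, olfactory receptors and potassium channels had 15.2% and 9.47%.

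Several families had similar counts in both classes, and most of their genes lay in neither. Protocadherins had 4 genes in each of 66 (PCDH7, PCDH10, PCDH18 and PCDH20 in the K562-restricted windows). Beside the 3.42% and 2.31% of all protein-coding genes, these 4 were 6.06% of the list. Guidance cues and their receptors had 6 of 38 (SEMA3A, UNC5C, SEMA3E, SEMA3D, SEMA3C and SEMA6A) against 7, and ephrins and Eph receptors had 2 of 22 (EFNA5 and EFNB2) against 4. The transcription factors FOXP2 and SOX2 were the 2 of 104 HOX, SOX and FOX genes (1.92%), against 2. The taste receptor TAS2R16 was 1 of 27 (3.7%) against 2, and ZNF385B, ZNF804A, ZNF462 and ZNF330 were 4 of 509 zinc finger genes (0.786%) against 2. The shares of these last 3 lists were near or below that of all genes and are no result about the families.

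Lists tied to the tissues of origin had few genes in these windows. Of all protein-coding genes, 3.42% lay in K562-restricted windows and 2.31% in windows called in bulk. No gene of 35 erythroid genes and none of 35 blood cell lineage genes lay in K562-restricted windows, and 0 and 1 lay in windows called in bulk. Of 35 intestinal epithelial genes, SI, the sucrase-isomaltase of the brush border, lay in a K562-restricted window, and 1 other gene lay in a window called in bulk. Epithelial adhesion and junction genes had 3 of 44 (6.82%) in K562-restricted windows and 0 in windows called in bulk. These were TP63, the transcription factor of stratified epithelium, ITGB6, an epithelial integrin subunit, and CLDN1, a tight junction claudin. TP63 and CLDN1 lay in the same 2.2 Mb stretch of chromosome 3, so the 3 genes are few independent places and no result about the list. Of 45 chemokine and 17 type I interferon genes, 0 lay in either class. In lists this short, counts of 0 or 1 are near the shares of all genes and are no result about the lists. Expression of these genes was not analysed here.

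**Figure D5:**
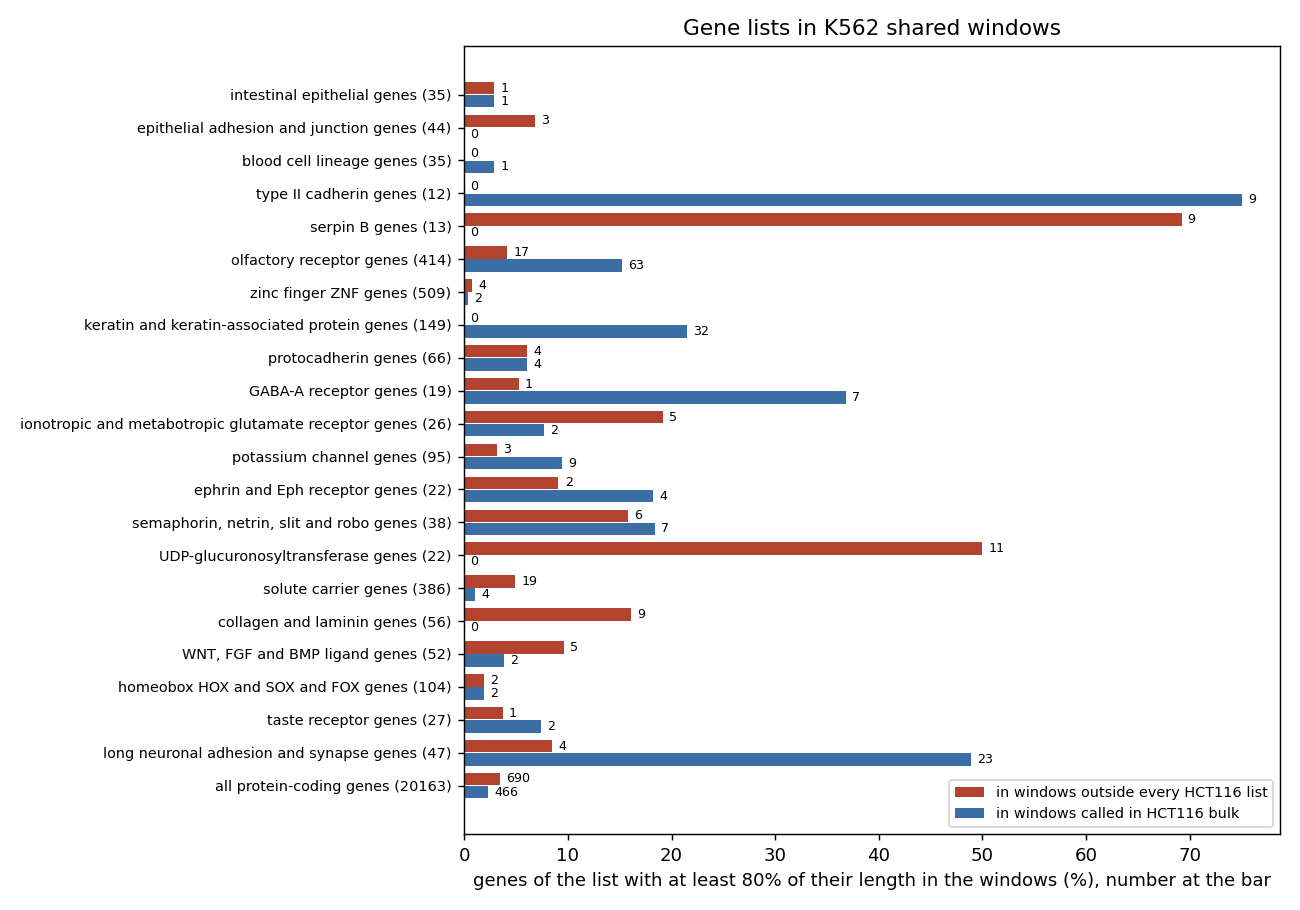
Share of each gene list in % (horizontal axis) with at least 80% of the gene's length in windows outside every HCT116 list (red) and in windows called in HCT116 bulk (blue), with the number of genes at each bar and the size of the list in parentheses. Lists without any gene in K562 shared windows are left out. Serpin B genes (9 of 13) and type II cadherins (9 of 12) lie at opposite ends, and the lowest row gives all 20163 protein-coding genes.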

How the data were processed

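Called regions of K562 and HCT116 cells were used as deposited by the authors, in 14 lists. They came from lamin-B1 cTSA-seq, except for a list of published K562 TSA-seq, made with another lamin-B antibody, and K562 lists that combine both methods. For these the authors mapped reads on hg19 (Bowtie2 2.3.2), took out duplicates, counted reads per window (bedtools 2.26.0), brought pull-down and input libraries to a common total, took a log2 ratio and z-score, and called 3 states with a Hidden Markov Model, intersecting replicates. The deposited values are region starts and ends in bp, so depth is unknown. The 2 HCT116 lists of 90m G1 and 180m G1 are not named consensus lists. The list of 1000000 cells is so named, although the labels hold 1 pull-down library for it. Mouse, RPE1 and SLAM-seq data were not used here.

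Lists were cut to 100 kb windows of chromosomes 1 to 22, X and Y, and 2 regions elsewhere were left out. GC content and sequences came from GRCh37, and genes from the GENCODE annotation lifted to that build. A gene counted where at least 80% of its length lay in a class. No p-value was computed, since windows are not samples. Members, gene lists and comparisons were chosen with earlier results of these data known. Genes named are up to 6 in each of the 10 longest stretches, up to 8 in each list (all 9 for the serpin B and collagen lists) and the 10 longest, less any item not reported here. Chromosomes named are the 3 with the highest and the 3 with the lowest share, and regions named are the 5 longest K562 shared regions without a call. Other chromosomes and the runs without calls were named after their values were seen. Calculations used Python 3.11.15, numpy 2.4.6, pandas 2.3.3 and scipy 1.17.1, figures matplotlib 3.10.9, and the window and gene counting was tested on planted data.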

Additional observations from a re-analysis of the deposited data

How the results depend on the processing

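Of 111 alternative settings over the reported results, 100 stayed within the limits set for them (1.5-fold for counts and differences, the Wilson interval for the share), 11 moved and 0 reversed. Of the 11 moves, 8 were of the share. Its limit is too narrow, because the Wilson interval treats neighbouring windows as independent, so these moves are a description only. The share of 42.1% became 46.2% with consensus lists only, 40.0% with windows at least 1 window away from any HCT116 call and 44.4% on autosomes only. Leaving out one list or chromosome at a time gave 3926 to 4203 windows, shares of 38.2% (without chromosome 4) to 44.2% (without chromosome X), GC differences of -0.87 to -0.73 percentage points and gene density differences of 0.63 to 0.8 per Mb, around a main value of 0.7. The GC difference was -2.06 points against windows called in all 9 lists and -0.33 against windows called in bulk and not in 90m G1, the second reference being chosen after seeing the data, as was the weighting by chromosome. With all gene types the density difference was 1.36 per Mb (9.96 against 8.6). No paired analysis was possible because the deposited lists hold no values per replicate. A window without a call had no enriched state in these lists, and its signal was not analysed here.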
